A study of Homo sapiens with 8 samples.

Results

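The comparison described here asks what an siRNA to importin8 changes in HepG2 cells that have also received a miR-552-3p mimic. HepG2 is a human hepatocellular carcinoma line that keeps many hepatocyte genes active. The siIPO8-miR-552-3p cells received the mimic at 1 nM and the importin8 siRNA at 30 nM. The miR-552-3p cells received the same mimic at 1 nM and a negative control siRNA at 30 nM, so the mimic is present on both sides. Cells were lysed after 72 h. The comparison uses 4 of the 8 libraries of the study, 2 in each group. The other 4 libraries, siIPO8-NC and NC, carry a negative control mimic at 1 nM in place of the miRNA, with importin8 siRNA or control siRNA, and serve to show where the mimic-treated cells differ. All 17715 of 26716 genes with enough counts were examined.

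Importin8, encoded by IPO8, is a nuclear import receptor of the karyopherin beta family, which carries cargo proteins through the nuclear pore and releases them when Ran-GTP binds. It has been reported to carry Argonaute proteins, the effectors of microRNAs, and SMAD proteins. A microRNA guides Argonaute to transcripts that pair with its seed, bases 2 to 8, usually in the 3′ untranslated region. The title of the study names 2 nuclear receptors of liver metabolism: FXR, the bile acid receptor encoded by NR1H4, and LXR, the oxysterol receptors encoded by NR1H3 and NR1H2. FXR induces the repressor SHP, encoded by NR0B2, which lowers the bile acid enzyme CYP7A1. LXR and the SREBP factors drive genes of fatty acid and cholesterol handling.

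The mature strand that the mimic is named for is shown because its seed is searched for in transcripts below. RefSeq places it on the minus strand of chromosome 1 at chr1:34669614-34669634 (GRCh38.p14), and capitals mark the seed.
hsa-miR-552-3p: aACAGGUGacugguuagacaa

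Expected counts summed to 21660769 and 21641985 in siIPO8-miR-552-3p and to 22060634 and 21665807 in miR-552-3p. Levels are given as CPM, counts scaled to the size and composition of each library, and compare 1 gene between libraries. HepG2 identity was checked by hepatocyte markers per transcript length. ALB stood at 12152 and 11924 FPKM in siIPO8-miR-552-3p against 9119 and 9057 in miR-552-3p, and HNF4A at 53.2 and 53.3 against 40.4 and 43.6 FPKM. APOA2 went the other way, at 4557 and 5121 against 5908 and 5219 FPKM. The other markers checked (APOA1, APOB, TTR, SERPINA1, AFP, TF and FGB) were higher in both siIPO8-miR-552-3p libraries. Of 10 fibroblast markers, 4 had enough counts. All 10 together summed to 9.86 and 11.1 CPM in siIPO8-miR-552-3p and to 10.3 and 10.3 CPM in miR-552-3p. COL3A1, DCN, LUM, PDGFRA, THY1 and FAP did not pass the filter. Markers of endothelial and blood cells summed to 1431 and 1430 CPM against 882 and 899 CPM, nearly all of it LYZ, which rose by 0.73 (log2). Of the 7 tested, 2 rose and 2 fell. CD79A fell, with 0.673 and 0.522 CPM in siIPO8-miR-552-3p against 13.5 and 12.1 CPM in miR-552-3p (log2 fold change -4.41). PTPRC and KDR did not pass the filter. The series design gives 2 experiments a group without saying whether cultures were separate, so the p-values speak for the spread of these libraries, which may be technical. In bulk RNA, fewer cells of a type and less RNA per cell cannot be told apart.

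IPO8, the siRNA target on chromosome 12 (30628988 to 30695986, minus strand, GRCh38), had 7.64 and 8.30 CPM in siIPO8-miR-552-3p against 25.4 and 24.6 CPM in miR-552-3p. The groups lay far apart, and the fall was 1.65 on the log2 scale (log2 fold change -1.65, SE 0.09, adjusted p = 1.4e-06). Each adjusted p here is from the quasi-likelihood test of edgeR with Benjamini-Hochberg adjustment over all genes tested. With the control mimic, IPO8 had 11.3 and 11.5 CPM in siIPO8-NC and 34.6 and 33.3 CPM in NC. That fall was 1.57 on the log2 scale, and the difference between both siRNA effects was -0.07 (SE 0.12, adjusted p = 0.70).

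Among mimic-treated cells the importin8 siRNA changed 5934 of 17715 genes tested, 33.5%. Of these, 3069 rose (17.3%) and 2865 fell (16.2%). Each count of list members in the mimic-treated cells below is to be read against these shares of all genes. With 2 libraries a group, groups that do not overlap add little to a call. They were also seen in genes not called, such as NR1H3 and NR1H2. The share of all genes with separate groups is not given here. Among larger changes falls outnumbered rises: 1367 genes (7.72%) changed at least 2-fold, of which 857 (4.84%) fell and 510 (2.88%) rose, and 263 genes (1.48%) fell and 76 (0.429%) rose at least 4-fold. The median over all genes tested was -0.01 on the log2 scale, with a median absolute change of 0.32. Of 2196 long noncoding RNAs, 223 fell and 103 rose, with a median of -0.13, while of 15161 mRNAs 2595 fell and 2945 rose, with a median of 0.00.

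Among the largest rises were genes known for their expression in liver. HAL, histidine ammonia-lyase, had 60.1 and 57.5 CPM in siIPO8-miR-552-3p against 9.38 and 8.57 CPM in miR-552-3p (log2 fold change 2.71, SE 0.10, adjusted p = 2.7e-07). TTR, transthyretin, the carrier of thyroxine and of retinol-binding protein, had 265 and 279 CPM against 57.0 and 54.0 CPM (2.29, SE 0.14, adjusted p = 1.1e-05). HSD17B2, which oxidises oestradiol and testosterone, had 47.5 and 44.5 CPM against 8.51 and 7.63 CPM (2.51, SE 0.16, adjusted p = 7.2e-06). Both siRNA libraries lay above both control siRNA libraries in each, which the choice of these genes required. AKR1D1 (2.27), a steroid 5-beta-reductase of bile acid synthesis, the glutathione transferase GSTA1 (2.69) and the chemokine CCL16 (2.68) rose too. So did the meprin subunit MEP1A (2.16) and ADAMTS13 (2.10), the protease that trims von Willebrand factor. The medium-chain acyl-CoA synthetases ACSM2A and ACSM2B rose by 2.71 and 2.64. They are near-identical neighbours, as GSTA1 is with GSTA2, so the split of reads between copies is uncertain. TSFM, a mitochondrial elongation factor, had 122 and 68.6 CPM against 19.9 and 18.0 CPM (2.33, adjusted p = 0.0028). Its siRNA libraries lay far apart, and its adjusted p was 0.054 when the 4 mimic libraries were fitted alone.

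LEAP2, which encodes a liver-expressed peptide that opposes ghrelin at its receptor, headed the list. It had 363 and 190 counts in siIPO8-miR-552-3p and was listed at 0 in both miR-552-3p libraries, at least 94.97-fold higher with miR-552-3p set at 3 counts a library. It had 291 and 285 counts in siIPO8-NC and was listed at 0 in NC, so it was detected in each importin8 siRNA library and in no other. LEAP2 lies on chromosome 5 (132872322 to 132875046, plus strand, GRCh38) between UQCRQ (132866560 to 132868031, plus strand) and AFF4 (132875379 to 132963634, minus strand), which is transcribed towards it. UQCRQ, a subunit of respiratory complex III, had 176 and 185 CPM against 73.1 and 64.5 CPM (1.39, adjusted p = 1.0e-06). AFF4, a scaffold of the super elongation complex, had 77.9 and 62.8 CPM against 131 and 167 CPM (-1.08, adjusted p = 0.00067). Whether reads of a neighbour were assigned to LEAP2 was not tested. The sources used here do not give whether counting used strand.

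**Figure D1:**
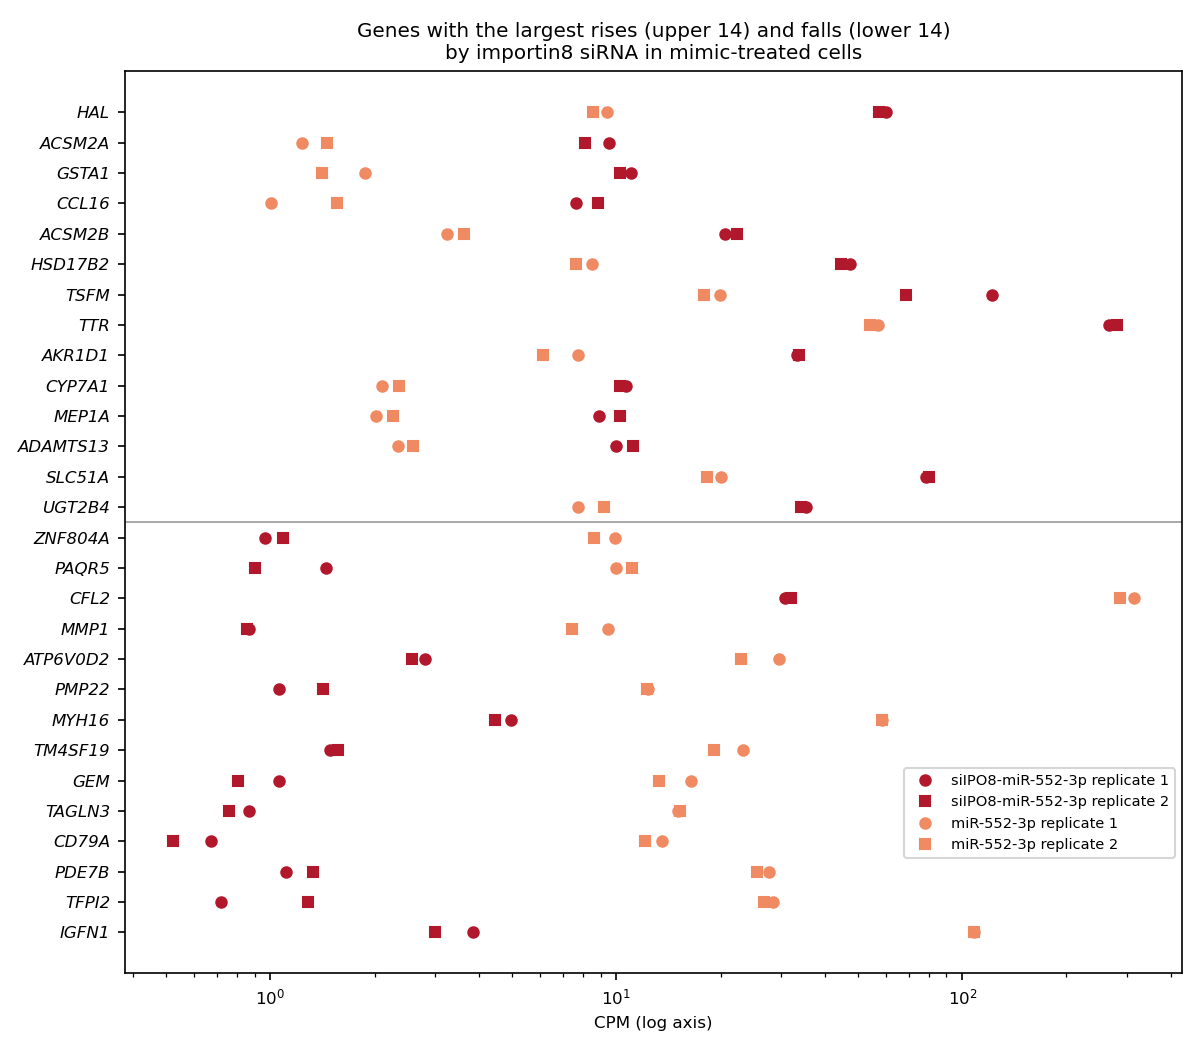
CPM of each library (log axis) for 14 of the 15 genes with the largest rises and 14 of the 15 with the largest falls, LEAP2 and HIST2H2BE left out because a group is listed at 0. Circles are replicate 1 and squares replicate 2, in dark red for siIPO8-miR-552-3p and orange for miR-552-3p. In each row the 2 groups are separate, as the choice of these genes required. The siIPO8-miR-552-3p libraries of TSFM (122 and 68.6 CPM) and TFPI2 (0.721 and 1.28 CPM) lie far from each other.

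The largest falls were in genes of varied function, and many of these genes were low in NC. IGFN1, an immunoglobulin-like and fibronectin domain protein of muscle, had 3.85 and 2.99 CPM in siIPO8-miR-552-3p against 108 and 108 CPM in miR-552-3p (log2 fold change -4.98, SE 0.12, adjusted p = 5.6e-08). TFPI2, a Kunitz protease inhibitor, had 0.721 and 1.28 CPM against 28.4 and 26.8 CPM (-4.77, SE 0.23, adjusted p = 8.6e-07). PDE7B, a cAMP phosphodiesterase, had 1.11 and 1.33 CPM against 27.6 and 25.6 CPM (-4.44, SE 0.21, adjusted p = 7.6e-07). Groups did not overlap in these genes, as the choice of the largest falls required. CFL2, a cofilin that severs actin filaments, had 30.7 and 32.0 CPM against 313 and 286 CPM (-3.25, SE 0.09, adjusted p = 9.9e-08), the highest CPM in miR-552-3p among the 15 falls. MYH16, annotated as a unitary pseudogene of a masticatory myosin, fell by 3.63, the GTP-binding protein GEM by 3.99, the myelin protein gene PMP22 by 3.31 and the interstitial collagenase MMP1 by 3.29. The B cell receptor component CD79A (-4.41), the neuronal transgelin TAGLN3 (-4.21), TM4SF19 (-3.79), the vacuolar ATPase subunit ATP6V0D2 (-3.29), PAQR5 (-3.17) and ZNF804A (-3.17) also fell, with 8.62 to 29.5 CPM in the miR-552-3p libraries and 0.522 to 2.79 CPM in siIPO8-miR-552-3p.

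HIST2H2BE, a histone H2B gene, was listed at 0 in both siIPO8-miR-552-3p libraries against 11.03 and 13.71 CPM in miR-552-3p, at least 86.3-fold lower in the siRNA cells with that group set at 3 counts a library. It was also at 0 in siIPO8-NC against 9.90 and 9.29 CPM in NC. H2B genes have many near-identical copies among which estimated counts divide shared reads, so this level is uncertain.

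FXR and many of the genes it is known to control were higher with the importin8 siRNA. NR1H4, which encodes FXR, had 70.3 and 66.2 CPM in siIPO8-miR-552-3p against 27.6 and 27.5 CPM in miR-552-3p (log2 fold change 1.31, SE 0.07, adjusted p = 1.4e-06). NR0B2, which encodes SHP, had 168 and 177 CPM against 49.1 and 49.3 CPM (1.81, SE 0.07, adjusted p = 4.5e-07). Neither pair of groups overlapped. Both genes overlap an annotated gene on the opposite strand, an antisense RNA for NR1H4 and NUDC for NR0B2, so their counts may include reads of these. Of 16 genes tested in the list of FXR and its targets, 9 rose and 2 fell, against 17.3% and 16.2% of all genes tested, with a list median of 0.47. SLC51A, the bile acid export subunit OST alpha, rose by 2.05, the bile acid glucuronidating enzyme UGT2B4 by 2.04, kininogen KNG1 by 1.81 and APOC2, the lipoprotein lipase activator, by 0.95. KLB and FGFR4, which together form the receptor for FGF19, rose by 0.85 and 0.55. RXRA, the dimer partner of FXR, rose by 0.39. SLC51B, the other subunit of the exporter, and the phospholipid transfer protein PLTP fell by 0.47 and 0.31. Both lost the call without siIPO8-miR-552-3p replicate 1, without its replicate 2 or without miR-552-3p replicate 1, where the adjusted p lay between 0.063 and 0.13. FGF19 had at most 0.565 CPM in any of the 4 libraries and was not called (adjusted p = 0.078).

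The siRNA effect on NR1H4 differed in the control-mimic setting. NR1H4 had 84.7 and 77.1 CPM in siIPO8-NC and 73.3 and 74.7 CPM in NC, a log2 fold change of 0.13 (adjusted p = 0.14), and the difference between both siRNA effects was 1.18 (adjusted p = 1.6e-05). The difference was smaller for NR0B2 (0.53, adjusted p = 0.0026), which had 316 and 318 CPM in siIPO8-NC and 139 and 124 CPM in NC. KLB and FGFR4 rose with the siRNA under the mimic and fell with it under the control mimic, by 1.82 and 0.49, with differences of 2.67 and 1.04.

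Several enzymes of bile acid synthesis rose. CYP7A1, the rate-limiting enzyme of the classical pathway, had 10.6 and 10.2 CPM in siIPO8-miR-552-3p against 2.11 and 2.36 CPM in miR-552-3p (log2 fold change 2.22, SE 0.16, adjusted p = 5.7e-06). Of 10 genes tested, 6 rose and 2 fell, with a median of 0.58. CYP8B1, the sterol 12-alpha-hydroxylase, rose by 1.74 at under 1 CPM in each of the 4 libraries, and had an adjusted p of 0.057 in the fit of the 4 mimic libraries alone. ACOX2, which shortens the side chain in peroxisomes, rose by 0.63. HSD3B7 and AMACR, which act early in the pathway and on its side chain, fell by 0.43 and 0.41. AMACR was not called without siIPO8-miR-552-3p replicate 1, without its replicate 2, without miR-552-3p replicate 2, with DESeq2 or with limma-voom (adjusted p between 0.054 and 0.17), and HSD3B7 was then the only fall.

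The LXR receptors and ABCA1 did not pass the test in the mimic-treated cells. NR1H3 had 22.9 and 21.9 CPM against 20.01 and 19.88 CPM (0.17, adjusted p = 0.12) and NR1H2 had 18.5 and 17.9 CPM against 17.9 and 17.9 CPM (0.03, adjusted p = 0.86). ABCA1, the cholesterol exporter and classical LXR target, had 133 and 116 CPM against 106 and 115 CPM (0.17, adjusted p = 0.18). With the control mimic ABCA1 rose by 1.12 (adjusted p = 5.2e-06) and NR1H3 by 0.34 (adjusted p = 0.0039), and NR1H2 was not called. The difference between both siRNA effects was called for ABCA1 (-0.96, adjusted p = 0.00029) and not for the 2 receptors. Of 12 genes tested in the list, 3 rose and 1 fell, against 17.3% and 16.2% of all genes. MLXIPL, which encodes the glucose-sensing factor ChREBP, rose to 58.9 and 63.7 CPM, against 30.2 and 28.5 CPM (1.06, adjusted p = 1.5e-05). SREBF1 rose by 0.39 (adjusted p = 0.0062). That call did not survive leaving out siIPO8-miR-552-3p replicate 2 or miR-552-3p replicate 1, with adjusted p of 0.056 to 0.065. LPCAT3 rose by 0.31, and the list kept 1 rise without either of those libraries. SMPDL3A, a phosphodiesterase, fell by 1.16.

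Cholesterol synthesis rose as a group. Of 25 genes tested, 16 rose and none fell, with a median of 0.53 against -0.01 for all genes. DHCR7, a reductase at the end of the pathway, had 109 and 110.4 CPM in siIPO8-miR-552-3p against 62.8 and 61.1 CPM in miR-552-3p (log2 fold change 0.83, SE 0.07, adjusted p = 1.5e-05). SQLE, squalene epoxidase, had 150.5 and 153 CPM against 99.1 and 97.6 CPM (0.63, SE 0.06, adjusted p = 2.9e-05). Neither gene had overlapping groups. The mevalonate kinase gene MVK rose by 0.71 and the isomerase gene IDI1 by 0.66, while SREBF2, which encodes the factor that drives the pathway, did not pass the test (-0.03, adjusted p = 0.82). With the control mimic the same list had 2 rises and 17 falls, median -0.58, where 25.4% of all genes rose and 21.6% fell. The difference between both siRNA effects was called higher with the mimic for 21 of the 25 genes and lower for 1, against 14.2% and 17.1% of all genes. As an example, DHCR7 had 238 and 216 CPM in siIPO8-NC and 297 and 283 CPM in NC.

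Fatty acid synthesis showed a like pattern. Of 14 genes tested, 10 rose and 1 fell in the mimic-treated cells, with a median of 0.34, whereas with the control mimic 2 rose and 10 fell. FASN, fatty acid synthase, had 537 and 531 CPM in siIPO8-miR-552-3p against 306 and 339 CPM in miR-552-3p (0.73, SE 0.11, adjusted p = 0.00056). SCD, stearoyl-CoA desaturase, had 1169 and 1085 CPM against 701 and 746 CPM (0.64, adjusted p = 0.00017), and ACACA, acetyl-CoA carboxylase 1, 51.5 and 49.6 CPM against 33.9 and 37.5 CPM (0.504, adjusted p = 0.00056). Groups did not overlap for any of the 3, nor did they for NR1H3, NR1H2 and ABCA1, which were not called. PNPLA3 and the desaturase FADS2 rose by 0.73 and 0.65. ELOVL5 fell by 0.24, a call lost without either siIPO8-miR-552-3p library or miR-552-3p replicate 1 (adjusted p between 0.080 and 0.21), and 2 genes fell without either NC library. The difference between both siRNA effects was called higher for 9 genes of the list and lower for none, against 14.2% and 17.1% of all genes. Among genes of triglyceride synthesis and lipid droplets, 6 of 17 rose and 2 fell, against 17.3% and 16.2% of all genes. AGPAT2 (0.79), DGAT2 (0.70) and GPAM (0.57) were among the rises, and the lipins LPIN1 (-0.61) and LPIN3 (-0.37) were the falls. LPIN3 lost its call without siIPO8-miR-552-3p replicate 1 or miR-552-3p replicate 2.

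Many genes of fatty acid oxidation rose as well. Of 19 tested, 13 rose and none fell, with a median of 0.46. CPT1A, the gate of mitochondrial fatty acid entry, had 130 and 125 CPM in siIPO8-miR-552-3p against 39.0 and 39.3 CPM in miR-552-3p (1.70, SE 0.07, adjusted p = 4.5e-07). EHHADH and HADH, which act in the oxidation spiral, rose by 1.22 and 1.11. CREB3L3, a hepatic factor of fasting lipid metabolism, rose by 1.104 with the mimic and fell by 1.31 with the control mimic (difference 2.41, adjusted p = 8.2e-07).

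Lipoprotein genes were among the higher groups: 13 of 20 rose and 1 fell, with a median of 0.87. APOB, the structural protein of very low density lipoprotein, had 16620 and 14050 CPM in siIPO8-miR-552-3p against 7471 and 9172 CPM in miR-552-3p (0.88, SE 0.13, adjusted p = 0.00057). APOM, which carries sphingosine 1-phosphate on HDL, had 128 and 125 CPM against 37.9 and 32.1 CPM (1.86, SE 0.11, adjusted p = 3.1e-06). APOF, APOC3 and APOA5 rose by 1.83, 1.75 and 1.49. PLTP, named above, was the fall, with its call resting on single libraries as stated there. APOA5 had 56.4 and 56.9 CPM in siIPO8-NC and 93.0 and 90.9 CPM in NC, and its siRNA effect was 2.19 higher with the mimic (adjusted p = 1.2e-06).

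Most of the gluconeogenic genes tested rose. PCK1, phosphoenolpyruvate carboxykinase, had 87.7 and 88.1 CPM in siIPO8-miR-552-3p against 38.9 and 32.3 CPM in miR-552-3p (log2 fold change 1.30, SE 0.15, adjusted p = 0.00049). Of 10 gluconeogenic genes tested, 7 rose and 1 fell, TAT (1.07) and FOXO1 (0.74) among the rises and pyruvate carboxylase PC (-0.64) the fall. G6PC, glucose-6-phosphatase, had 1.20 and 1.14 CPM against 0.549 and 0.660 CPM (0.95, adjusted p = 0.023). Its call was lost without each of the 4 libraries in turn, with DESeq2, with limma-voom and with the 4 mimic libraries alone (adjusted p between 0.053 and 0.16). FBP1 and CYP2E1 had at most 17 counts in any of these libraries and were not tested. Of 25 genes of glucose uptake and glycolysis, 4 rose and 4 fell, shares close to the 17.3% and 16.2% of all genes. Among them hexokinase HK1 (-1.89) and platelet phosphofructokinase PFKP (-1.65) fell, the liver forms SLC2A2 (0.96) and PKLR (0.98) rose. PFKP had 9.47 and 7.31 CPM against 25.9 and 26.8 CPM. Of 16 glycogen genes, the branching enzyme GBE1 (-1.12), PYGB (-0.70) and PPP1R3B (-1.49) fell and 2 rose. PPP1R3B was not called without either group's replicate 2. Of the 2 rises, PHKA2 rose by 0.51, and PYGL by 0.21 with a call that each of the 4 libraries could end (adjusted p between 0.051 and 0.17).

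**Figure D2:**
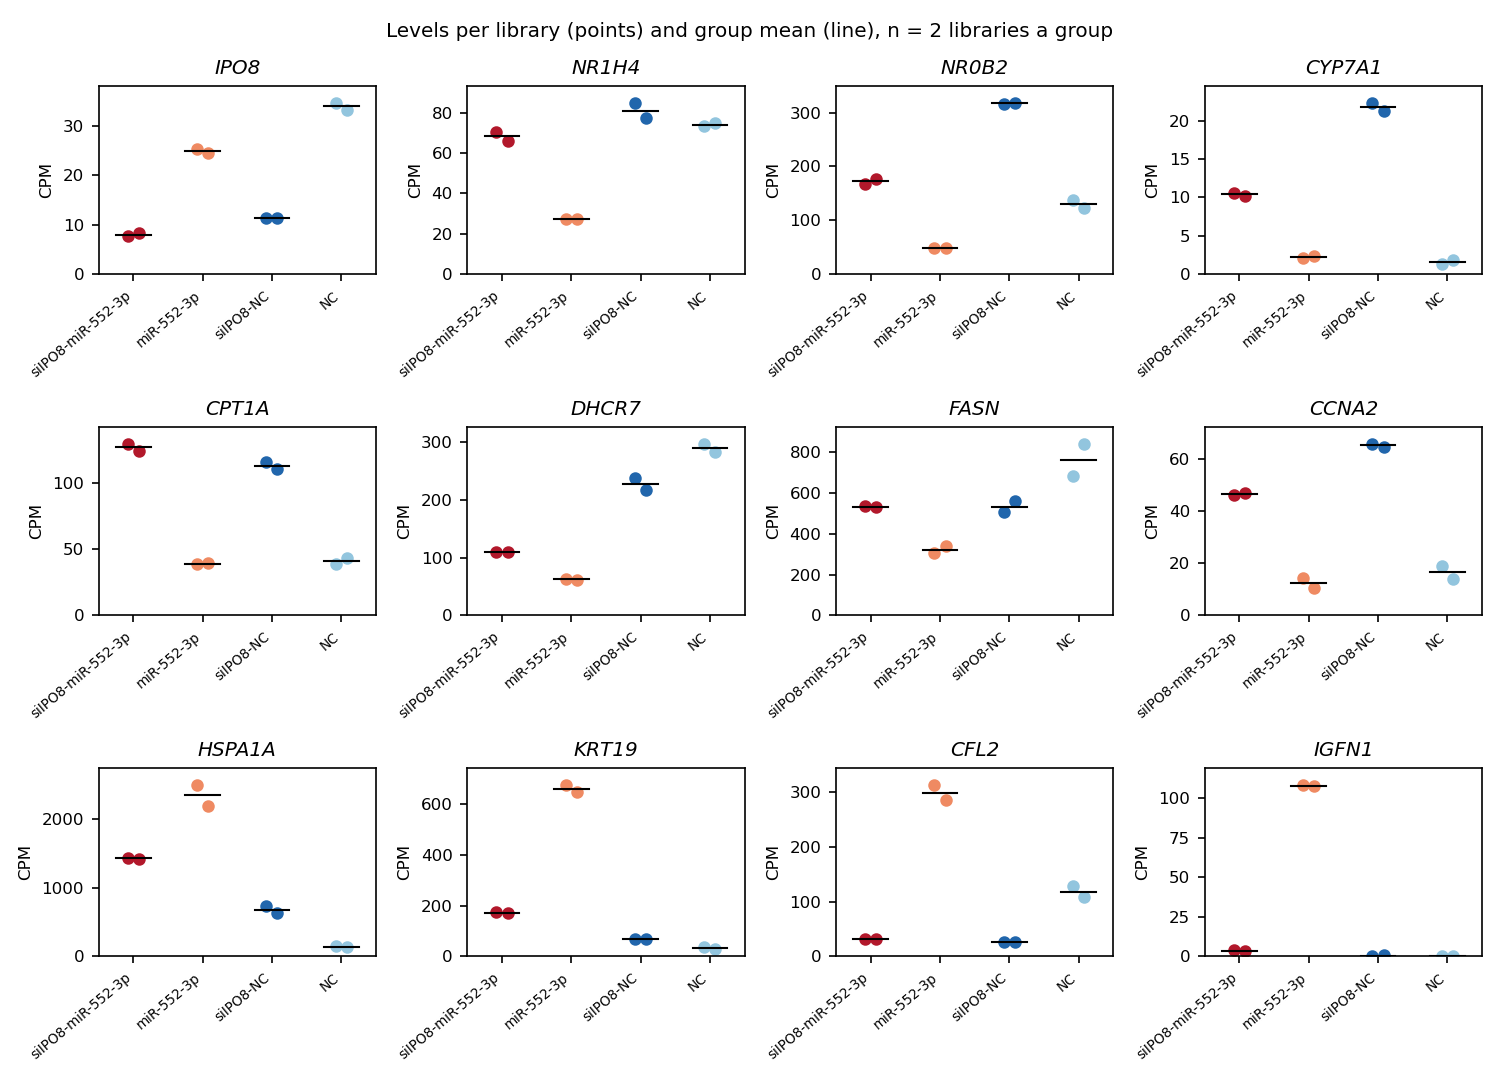
CPM per library for 12 genes in the 4 groups, each panel with its own axis starting at 0; points are libraries and lines are group means, n = 2 libraries a group. IPO8 is low in both importin8 siRNA groups; NR1H4 is low only in miR-552-3p (27.6 and 27.5 CPM), and IGFN1 is high only there (108 and 108 CPM).

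Secreted liver proteins were higher in the siRNA cells. Of 17 plasma carriers and fibrinogen chains, 14 rose and none fell, with a median of 0.64, and of 21 coagulation and complement factors 17 rose and 1 fell, with a median of 0.51. AHSG, fetuin-A, had 5334 and 5215 CPM in siIPO8-miR-552-3p against 1717 and 1567 CPM in miR-552-3p (1.68, SE 0.11, adjusted p = 4.4e-06). SERPINA6, the cortisol carrier, had 82.9 and 79.6 CPM against 26.8 and 30.7 CPM (adjusted p = 1.4e-06), and SERPINA7, the thyroxine carrier, rose by 1.43. Fibrinogen alpha, FGA, had 1148 and 1149 CPM against 463 and 485 CPM (1.28, adjusted p = 2.9e-05). Plasminogen PLG rose by 1.42, the factor XIII subunit F13B by 1.67, factor XI by 1.06 and the lectin pathway protease MASP1 by 0.99, and the fall was complement factor I, CFI (-0.38). ALB had 29570 and 28620 CPM against 21530 and 21600 CPM (0.43, adjusted p = 0.0099). Its call was lost without each of the 4 libraries in turn (0.41 to 0.46, adjusted p between 0.055 and 0.083). The carriers that rose numbered 9 without siIPO8-miR-552-3p replicate 2 or without either miR-552-3p library, and the coagulation and complement genes that rose numbered 11 without siIPO8-miR-552-3p replicate 1.

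Of 15 transcription factors of hepatocyte identity, 8 rose and 2 fell. CEBPA, which maintains hepatocyte differentiation, had 67.9 and 73.6 CPM in siIPO8-miR-552-3p against 28.9 and 29.3 CPM in miR-552-3p (1.28, SE 0.09, adjusted p = 4.1e-06), and ONECUT1, also called HNF6, rose by 1.18. CEBPB, the stress-responsive relative of CEBPA, had 166 and 163 CPM against 277 and 273 CPM (-0.74, adjusted p = 2.1e-05), and the xenobiotic receptor NR1I2 fell by 0.79. Among acute phase genes and chemokines 8 of 16 rose and 2 fell. Haptoglobin HP rose by 1.03 and orosomucoid ORM1 by 0.95, while the neutrophil chemokine CXCL8 had 55.6 and 51.5 CPM against 184 and 157 CPM (-1.67, adjusted p = 4.3e-06). The other fall was SERPINA3 (-0.38), not called without siIPO8-miR-552-3p replicate 1 or miR-552-3p replicate 2, and 5 genes rose without miR-552-3p replicate 1. Among drug-metabolising genes 6 of 16 rose and 1 fell, against 17.3% and 16.2% of all genes. POR, the electron donor of cytochromes P450, had a log2 fold change of 0.81, SULT2A1 0.70 and UGT2B7 -1.08. Among 19 genes of amino acid catabolism and the urea cycle, 6 rose and 2 fell, BHMT rising by 1.72 and MAT1A by 0.56. Without miR-552-3p replicate 2 that list had 2 rises, without siIPO8-miR-552-3p replicate 1 it had 3, and without miR-552-3p replicate 1 it had no fall.

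Genes of G2 phase and mitosis moved as 1 block. All 24 tested rose, with a median of 1.06, and 17 of them rose at least 2-fold. CCNA2, cyclin A2, had 46.4 and 47.2 CPM in siIPO8-miR-552-3p against 14.4 and 10.5 CPM in miR-552-3p (log2 fold change 1.91, SE 0.16, adjusted p = 4.8e-05). CDK1, the mitotic kinase, had 49.9 and 39.9 CPM against 17.7 and 15.1 CPM (1.45, SE 0.14, adjusted p = 6.7e-05). TOP2A, topoisomerase II alpha, had 201 and 186 CPM against 73.1 and 78.1 CPM (1.36, SE 0.08, adjusted p = 2.0e-06). In each the siRNA libraries were all above the others. All 24 also rose with the control mimic, with a median of 1.06, where 25.4% of all genes rose. The difference between both effects was called for 5 of the 24, 4 higher and 1 lower with the mimic. Over all genes it was called for 31.3%, with 14.2% higher and 17.1% lower. Each leave-one-out fit, DESeq2 and the fit of 4 libraries kept the count at 24 in mimic-treated cells.

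Many promoters of this block hold the letters of the cell cycle genes homology region (CHR), an element near the start of late cell cycle genes. Promoters of 300 bases, 250 before and 50 after the annotated start, were taken from RefSeq (GRCh38.p14), and 19 of the 24 genes matched. On either strand, 13 of the 19 (68.4%) hold the letters TTTGAA or the letters TTCGAA, against 16.6% of 27305 promoters of the same length, and 16 (84.2%) hold CCAAT against 35.7%. Neither motif contains the other, and each was counted alone. A match is a description of letters and not evidence of binding. The 5 promoters below are shown because their genes rose by 0.96 to 1.45 and each holds the letters TTTGAA or TTCGAA on either strand. Capitals mark these letters or their reverse complement, which is TTCAAA for the first. CCNB2 lies at chr15:59104896-59105195 (plus strand), CDK1 at chr10:60778081-60778380 (plus), PLK1 at chr16:23678639-23678938 (plus), KIF11 at chr10:92592880-92593179 (plus) and MKI67 at chr10:128126374-128126673 (minus).
CCNB2: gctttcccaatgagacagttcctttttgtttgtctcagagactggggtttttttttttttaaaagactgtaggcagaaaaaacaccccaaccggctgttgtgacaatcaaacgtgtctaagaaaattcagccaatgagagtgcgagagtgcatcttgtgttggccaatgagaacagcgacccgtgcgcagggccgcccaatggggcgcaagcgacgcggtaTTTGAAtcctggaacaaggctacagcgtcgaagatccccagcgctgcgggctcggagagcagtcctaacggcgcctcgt
CDK1: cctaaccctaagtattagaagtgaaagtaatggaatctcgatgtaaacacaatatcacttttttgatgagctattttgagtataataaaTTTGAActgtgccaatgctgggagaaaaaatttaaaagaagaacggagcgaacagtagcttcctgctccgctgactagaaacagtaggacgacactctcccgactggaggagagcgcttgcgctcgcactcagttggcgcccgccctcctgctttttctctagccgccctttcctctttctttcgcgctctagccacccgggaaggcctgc
PLK1: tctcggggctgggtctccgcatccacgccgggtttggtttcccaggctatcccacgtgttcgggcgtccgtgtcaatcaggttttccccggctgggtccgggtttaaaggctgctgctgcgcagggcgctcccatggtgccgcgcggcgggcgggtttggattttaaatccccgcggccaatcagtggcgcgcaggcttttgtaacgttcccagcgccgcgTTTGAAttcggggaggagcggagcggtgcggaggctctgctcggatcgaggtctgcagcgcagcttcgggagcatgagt
KIF11: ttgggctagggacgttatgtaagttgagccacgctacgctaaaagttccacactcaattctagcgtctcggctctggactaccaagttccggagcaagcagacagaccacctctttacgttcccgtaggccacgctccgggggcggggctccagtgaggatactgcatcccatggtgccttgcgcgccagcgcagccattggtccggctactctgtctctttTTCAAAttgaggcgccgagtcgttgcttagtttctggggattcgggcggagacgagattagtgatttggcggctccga
MKI67: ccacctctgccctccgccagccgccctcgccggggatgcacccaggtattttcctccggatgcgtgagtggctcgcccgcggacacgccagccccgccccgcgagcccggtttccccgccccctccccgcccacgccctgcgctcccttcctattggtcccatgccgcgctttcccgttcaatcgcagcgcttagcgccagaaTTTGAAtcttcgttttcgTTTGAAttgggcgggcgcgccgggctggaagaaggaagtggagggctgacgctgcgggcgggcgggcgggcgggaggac
The capitals begin 29 bases before the start in CCNB2 and PLK1, 28 before in KIF11 and 161 before in CDK1, and MKI67 holds them 2 times, 47 and 29 bases before it. PLK1, the polo-like kinase, had 127 and 134 CPM in siIPO8-miR-552-3p against 67.8 and 66.4 CPM in miR-552-3p, and MKI67, the proliferation antigen Ki-67, 107 and 96.4 CPM against 42.5 and 47.9 CPM.

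Genes of the G1/S transition and DNA replication rose with them: 19 of 26 rose and 1 fell, with a median of 0.80. E2F1, the factor that drives S phase genes, had 25.4 and 28.7 CPM in siIPO8-miR-552-3p against 8.06 and 7.49 CPM in miR-552-3p (1.80, SE 0.09, adjusted p = 1.2e-06). GINS2, CDC45 and MCM2, parts of the replicative helicase, rose by 1.47, 1.30 and 1.06. The fall was CCND1, cyclin D1, with 177 and 183 CPM against 251.0 and 262.4 CPM (-0.52, adjusted p = 0.00012). Targets of p53 went the other way, with 13 of 21 falling and none rising, median -0.39 (1 rose without either NC library). CDKN1A, the cyclin-dependent kinase inhibitor p21, had 150 and 144 CPM against 366 and 330 CPM (-1.24, SE 0.09, adjusted p = 6.0e-06). The ribonucleotide reductase subunit RRM2B fell by 1.35, the death receptor FAS by 1.05 and the BH3-only protein gene PMAIP1 by 0.86.

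**Figure D3:**
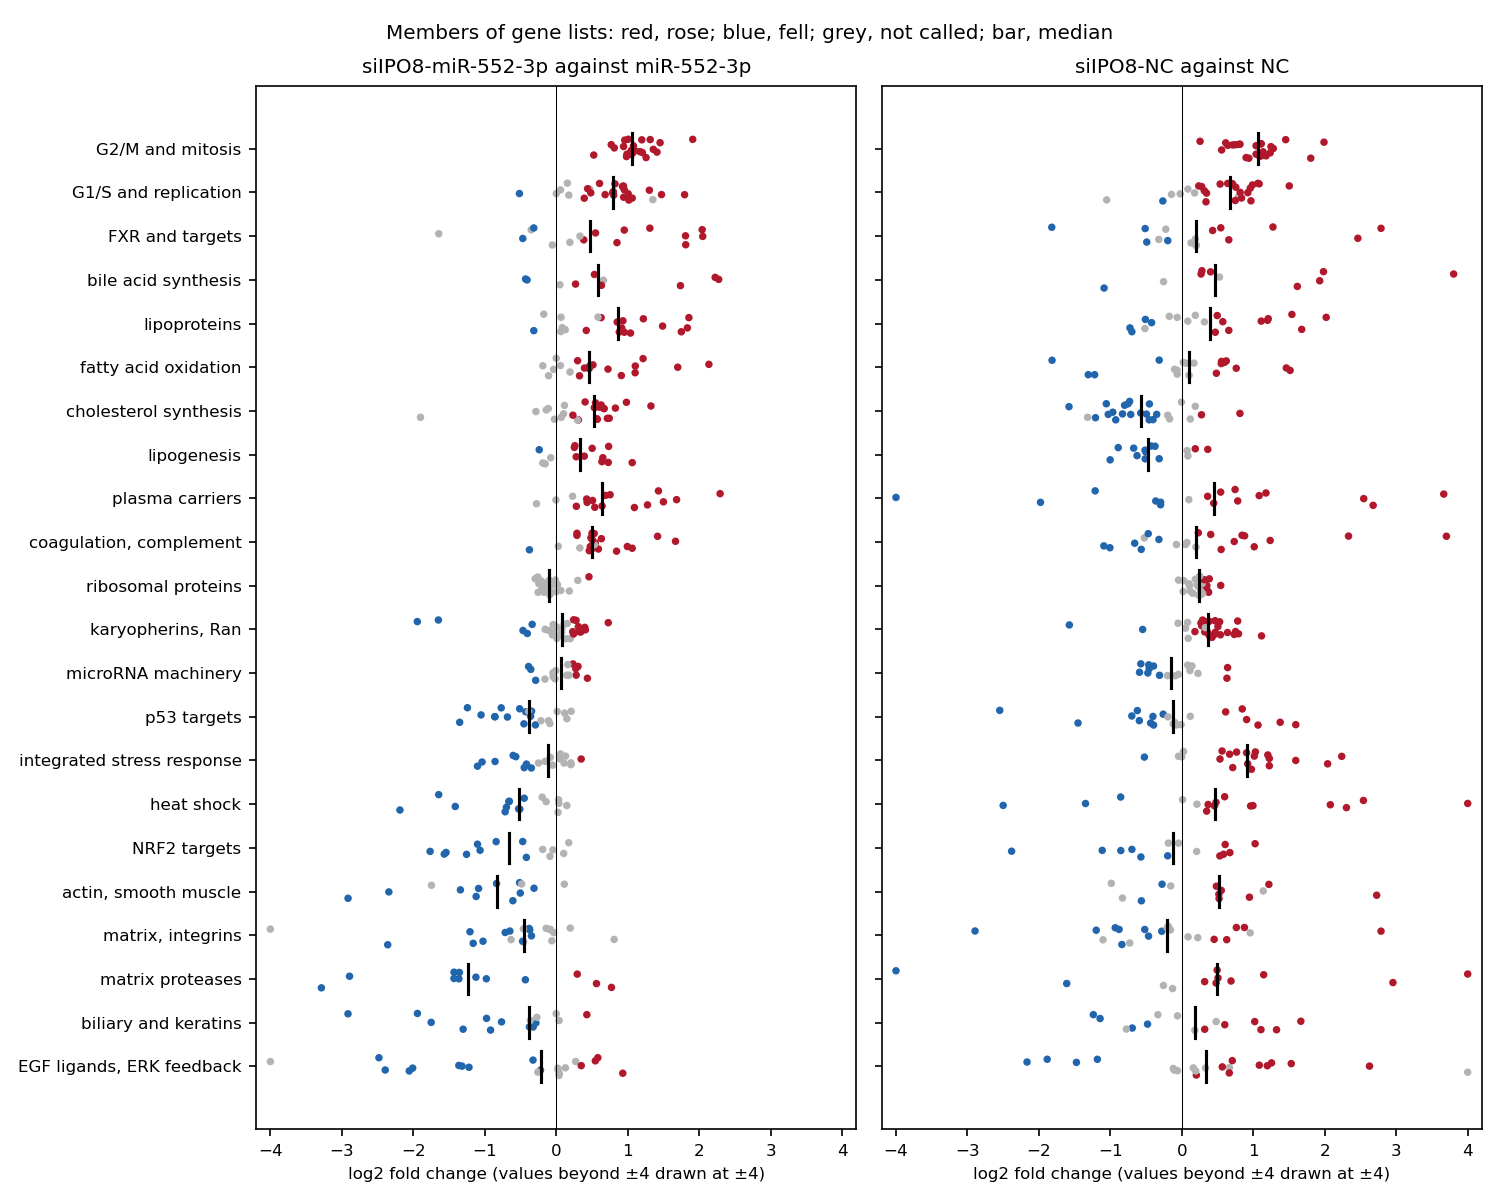
Log2 fold changes of the tested members of 22 gene lists for siIPO8-miR-552-3p against miR-552-3p (left) and siIPO8-NC against NC (right); each point is a gene, red if it rose, blue if it fell and grey if not called, black bars are list medians, and values beyond 4 in size are drawn at 4. The G2/M list is red throughout in both panels, while the medians of cholesterol synthesis, lipogenesis and heat shock lie on opposite sides of 0 in the 2 panels.

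Many stress genes were lower in the siRNA cells. Of 16 heat shock genes, 10 fell and none rose, with a median of -0.52. HSPA1A, the main inducible HSP70, had 1430 and 1423 CPM in siIPO8-miR-552-3p against 2492 and 2191 CPM in miR-552-3p (log2 fold change -0.71, SE 0.10, adjusted p = 0.00045), and its near-identical copy HSPA1B 1369 and 1316 CPM against 2233 and 2021 CPM (-0.66). The small heat shock proteins HSPB8 and CRYAB fell by 2.19 and 1.65. HSPA6, an HSP70 induced only under strong stress, had 33.5 and 33.8 CPM against 100 and 78.9 CPM (-1.41, SE 0.14, adjusted p = 0.00012). With the control mimic 11 of the 16 rose and 3 fell. HSPA6 had 17.0 and 12.9 CPM in siIPO8-NC against 0.225 and 0.307 CPM in NC, and HSPA1A 725 and 633 CPM against 147 and 129 CPM. The difference was -7.19 for HSPA6 (adjusted p = 2.9e-06) and -3.02 for HSPA1A (adjusted p = 8.7e-07).

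The HSPA6 promoter (chr1:161524290-161524589, plus strand, GRCh38.p14) is shown because that gene had the largest negative difference among the 12 named for it. Capitals mark the core of a heat shock element, GAA, 2 bases, TTC, 2 bases and GAA, read on the other strand and beginning 74 bases before the start.
HSPA6: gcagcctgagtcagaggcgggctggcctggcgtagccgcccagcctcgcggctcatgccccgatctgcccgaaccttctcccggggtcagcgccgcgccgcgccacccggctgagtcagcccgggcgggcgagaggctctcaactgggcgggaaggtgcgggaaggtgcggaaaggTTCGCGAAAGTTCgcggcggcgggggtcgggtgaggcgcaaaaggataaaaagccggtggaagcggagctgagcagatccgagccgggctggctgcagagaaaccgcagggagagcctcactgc
Promoters of 15 heat shock genes matched, and 3 of them (20%), those of HSPA6, HSPA8 and DNAJA1, hold these letters on either strand, against 0.5% of all 27305. Letters of other elements were counted in the same way: TGACNNNGC of the antioxidant response element in 3 of 10 NRF2 promoters (30.0% against 13.6%), TCACNCCAC of the sterol regulatory element in 1 of 19 cholesterol promoters (5.3% against 1.1%) and TGAGTCA of AP-1 in 1 of 7 promoters of matrix proteases and inhibitors (14.3% against 4.9%).

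Of 14 targets of NRF2, the regulator of antioxidant genes, 9 fell and none rose, with a median of -0.66 (1 rose without either NC library). HMOX1, haem oxygenase 1, had 19.4 and 20.8 CPM in siIPO8-miR-552-3p against 79.1 and 57.4 CPM in miR-552-3p (-1.76, SE 0.15, adjusted p = 5.3e-05). TXNRD1, thioredoxin reductase 1, had 279 and 261 CPM against 653 and 636 CPM (-1.25, SE 0.07, adjusted p = 1.7e-06). AKR1C1, whose reads are shared with close AKR1C relatives, fell by 1.54. With the control mimic 5 of the 14 rose and 6 fell.

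The integrated stress response had 8 falls and 1 rise among 20 genes. SLC7A11, the cystine importer, had 80.2 and 77.0 CPM against 160 and 177 CPM (-1.102, adjusted p = 2.3e-06), and CHAC1, SESN2 and ATF3 fell by 1.04, 0.86 and 0.60. The rise was NUPR1 (0.35), a call lost without either siIPO8-miR-552-3p library or miR-552-3p replicate 2 (adjusted p up to 0.21). Without either siIPO8-NC library the list had 2 rises and without either NC library 3. With the control mimic 16 of the 20 rose and 1 fell, and the difference was lower with the mimic for 17, against 17.1% of all genes. Of 16 chaperones and other genes of the unfolded protein response, 5 fell and 2 rose: the chaperone HSPA5, also called BiP, had 326 and 318 CPM against 584 and 476 CPM (-0.72, adjusted p = 0.0023), DNAJB9 fell by 0.79, and XBP1 (0.59) and CALR (0.34) rose. CALR was lost without siIPO8-miR-552-3p replicate 2 or miR-552-3p replicate 1, and 3 genes of the list fell without the first of these.

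Many cytoskeletal, matrix and epithelial genes were lower. Of 13 actin and smooth muscle genes, 10 fell and none rose, with a median of -0.83, while 7 rose and 2 fell with the control mimic. TAGLN, transgelin, had 21.5 and 22.8 CPM in siIPO8-miR-552-3p against 116 and 109 CPM in miR-552-3p (-2.34, SE 0.14, adjusted p = 5.7e-06), and TPM1, tropomyosin 1, 35.7 and 37.7 CPM against 93.5 and 92.4 CPM (-1.34, SE 0.06, adjusted p = 7.3e-07). Of 21 matrix and integrin genes, 10 fell and none rose. ITGA5, the fibronectin receptor subunit, had 5.53 and 5.50 CPM against 28.4 and 28.2 CPM (-2.36, SE 0.13, adjusted p = 1.6e-06). The laminin LAMA3 fell by 1.02.

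Of 12 matrix proteases and inhibitors, 9 fell and 3 rose, with a median of -1.24, so each member tested passed in 1 direction. PLAU, urokinase, had 1.54 and 1.19 CPM against 10.2 and 10.1 CPM (-2.89, adjusted p = 8.6e-06), and MMP3, stromelysin, 16.3 and 13.8 CPM against 43.2 and 38.0 CPM (-1.43, adjusted p = 1.1e-05). TIMP1, a metalloprotease inhibitor, fell by 1.36. MMP15, a membrane-bound metalloprotease, rose by 0.77 and TIMP3 by 0.29. TIMP3 lost its call without siIPO8-miR-552-3p replicate 2 or miR-552-3p replicate 1, where MMP15 was the only rise left of the 3.

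Of 15 biliary, progenitor and keratin genes, 10 fell and 1 rose. KRT19, a keratin of bile duct cells, had 174 and 170 CPM against 676 and 647 CPM (-1.94, SE 0.10, adjusted p = 1.1e-06), and KRT20, an intestinal keratin, 8.70 and 7.64 CPM against 61.9 and 61.3 CPM (-2.91, SE 0.13, adjusted p = 6.2e-07). CD24 fell by 1.75 and SOX4 by 1.30, and the rise was the oncofetal glypican GPC3 (0.43). Ligands and feedback genes of EGF receptor signalling had 9 falls and 4 rises among 21. Amphiregulin AREG had 26.5 and 24.2 CPM against 152 and 131 CPM (-2.48, SE 0.11, adjusted p = 6.2e-07), epiregulin EREG fell by 2.39, the phosphatase DUSP4 by 2.01 and PHLDA1 by 2.06. The receptor EGFR had 35.8 and 38.0 CPM against 86.7 and 97.4 CPM (-1.32), while ERBB3 rose to 163 and 149 CPM, against 78.9 and 84.8 CPM (0.93). ERBB2, SPRY4 and ETV4 were the other rises, with ERBB2 (0.58) not called without any 1 of the 4 libraries.

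Genes of the YAP and TEAD pathway had 5 falls and 1 rise among 13, against 9 rises and 2 falls with the control mimic. AXL, a receptor kinase, had 47.2 and 41.6 CPM against 135 and 131 CPM (-1.58, SE 0.08, adjusted p = 1.3e-06). ANKRD1 had 479 and 452 CPM in siIPO8-miR-552-3p against 771 and 742 CPM in miR-552-3p (-0.70), and 211 and 187 CPM in siIPO8-NC against 8.19 and 5.92 CPM in NC, a difference of -5.52 (adjusted p = 8.9e-08). CYR61 fell by 0.91 with the mimic and rose by 3.89 with the control mimic. AJUBA was the rise (0.38), and without either NC library 2 genes rose.

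Iron genes moved in both directions. Of 11 tested, 6 rose and 4 fell. FTL and FTH1, the ferritin chains, had 6478 and 6643 CPM and 2712 and 2837 CPM in siIPO8-miR-552-3p, against 12640 and 11580 CPM and 5008 and 4333 CPM in miR-552-3p (-0.88 and -0.75, adjusted p = 6.5e-05 and 0.00032). SLC40A1, ferroportin, had 39.96 and 40.90 CPM against 103 and 103 CPM (-1.35, SE 0.07, adjusted p = 1.4e-06), and BMP6, the iron-regulated ligand, fell by 1.80. TFRC, the transferrin receptor, rose by 0.52 and TFR2 by 1.23. Ferroportin rose by 1.14 with the control mimic, and the difference was -2.48 (adjusted p = 5.6e-07). Hepcidin, HAMP, had 23.3 and 29.6 CPM against 13.2 and 13.7 CPM (0.97, adjusted p = 0.027), a call lost without the filter on low counts, without siIPO8-miR-552-3p replicate 2, without either miR-552-3p library and without either siIPO8-NC library (0.79 to 1.01, adjusted p between 0.057 and 0.13). Among 17 TGF-beta, BMP and SMAD genes 6 rose and 4 fell. ID1, a BMP response gene, rose by 0.59 and TGFB1 fell by 0.61, with 3 to 6 rises and 1 to 4 falls on leaving out each library in turn, the fewest rises without either group's replicate 2 and the fewest falls without miR-552-3p replicate 1.

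Other groups had fewer members, to be read against the 17.3% of all genes that rose and the 16.2% that fell. Of 11 metallothionein and zinc genes 4 rose and 1 fell, MT1F (1.39) and MT1G (1.25) rising and the importer SLC39A10 (-0.73) falling, with MT1 copies close enough to share reads. Of 12 hypoxia genes 3 rose and 1 fell, with EPO, erythropoietin, at 25.2 and 30.3 CPM against 8.65 and 8.06 CPM (1.73, adjusted p = 7.0e-06). EPO was the only hypoxia rise left without any 1 of the 4 libraries, the fall, ANGPTL4 (-0.43), was then lost too, and 5 hypoxia genes fell without either NC library. Of 16 interferon-stimulated genes 2 rose and 5 fell, IRF9 falling by 1.25 and ISG20 by 0.93. The rises were OAS2 and STAT2, and at most 1 of them was called on leaving out any of the 8 libraries.

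Members of the nuclear transport machinery moved in both directions. Of 30 karyopherins and Ran cycle genes, 10 rose and 5 fell, IPO8 included, against 17.3% and 16.2% of all genes. The falls were thus close to the share of all genes. CSE1L, the exporter of importin alpha, had 323 and 306 CPM in siIPO8-miR-552-3p against 188 and 192 CPM in miR-552-3p (0.73, adjusted p = 3.1e-05), and the other 9 rises were of at most 0.41. KPNA7, an importin alpha of the embryo, had 1.83 and 2.42 CPM against 8.65 and 7.73 CPM (-1.94, adjusted p = 0.00012). IPO7, the closest relative of IPO8, had 607 and 561 CPM against 536 and 548 CPM (0.11, adjusted p = 0.32). The rises numbered 4 without siIPO8-miR-552-3p replicate 1 and 6 without miR-552-3p replicate 1. With the control mimic 23 of the 30 rose and 2 fell, where 25.4% of all genes rose and 21.6% fell. Of 16 genes of the microRNA machinery, 5 rose and 3 fell, the falls again close to the 16.2% of all genes. DROSHA rose by 0.44. AGO2, the slicing Argonaute and a reported cargo of importin8, had 78.1 and 73.9 CPM against 86.8 and 98.9 CPM (-0.29, adjusted p = 0.018), and AGO1 and AGO3 had log2 fold changes of 0.31 and 0.27. The calls of these 3 Argonautes were each lost on leaving out 1 or more of the 4 libraries (adjusted p up to 0.32), and without any 1 of those 4 the list had only 1 or 2 rises, with no fall except without miR-552-3p replicate 1. Of 10 reported cargoes 3 rose and 3 fell, with 0 or 1 left in each direction without any 1 of the 4 libraries. Of 26 cytosolic ribosomal proteins 1 rose, RPL30 (0.46), and none fell, against 3 rises and 6 falls without either NC library. RPL30 lost its call without the replicate 2 of either group. Of 22 subunits of oxidative phosphorylation 10 rose and 1 fell, CYC1 rising by 0.81 and COX6C falling by 0.31, and the rises numbered 3 to 5 without any 1 of the 4 libraries, where COX6C was not called.

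Seed matches were found at close shares in genes that rose, fell or were not called. The 7 bases that pair with the seed, CACCUGU, occur in the 3′ untranslated region of 2244 of 13707 tested mRNAs, 16.4% (GENCODE annotation, GRCh38, 1 transcript a gene). They occur in 488 of 2873 genes that rose (17.0%), 412 of 2476 that fell (16.6%) and 1344 of 8358 that were not called (16.1%). The median log2 fold change was 0.00 in genes with a match and 0.01 in genes without one, although genes with a match have longer untranslated regions (median 2750 against 752 bases). IPO8 itself has no match in its 3′ untranslated region of 1872 bases.

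The siRNA effect was set beside that in the control-mimic setting, siIPO8-NC against NC, which shares no library with it. There 8329 genes (47%) were called, 25.4% of all genes rising and 21.6% falling, and the shares below are to be read against these. Of the 3069 genes that rose with the mimic, 1768 (57.6%) also rose with the control mimic, 39.3% of the rises there, and 453 fell. Of the 2865 genes that fell, 1202 (42.0%) also fell, 31.4% of the falls there, and 550 rose. Over 11484 genes with a mean of at least 100 counts the 2 effects had a Pearson correlation of 0.33, a description across genes, which share libraries and are not independent. The difference between both effects was called for 5551 genes (31.3%), 2513 higher and 3038 lower with the mimic. CFL2 and PHLDA1 fell in both settings, CFL2 by 2.15 and PHLDA1 by 1.88 with the control mimic. CYP7A1 and HAL rose in both, by 3.80 and 6.59 with the control mimic. The size of the effect still differed for HAL (-3.88), CYP7A1 (-1.58) and CFL2 (-1.11), whose differences were called. That of PHLDA1 was not called (-0.17).

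**Figure D4:**
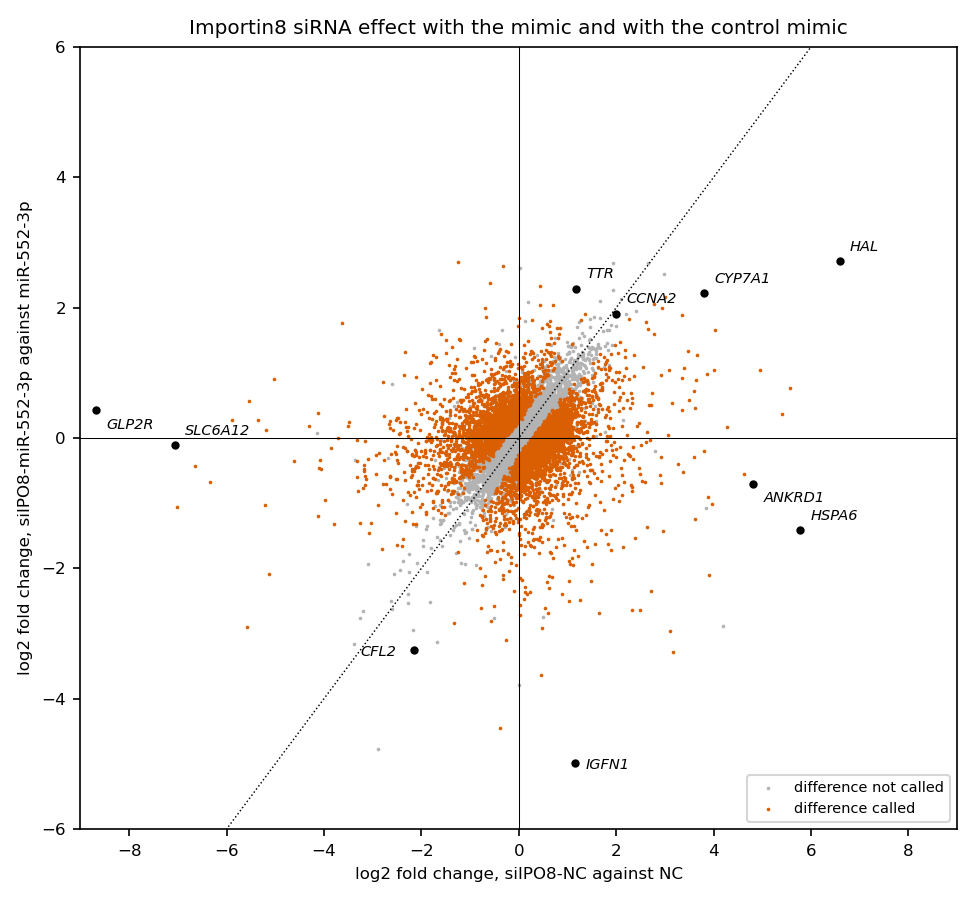
Log2 fold change for siIPO8-miR-552-3p against miR-552-3p (vertical axis) and for siIPO8-NC against NC (horizontal axis) for 11484 genes with a mean of at least 100 counts, 4 of them outside the axes. Orange points are called for the difference between both effects, grey points are not, and the dotted line marks equal effects; CCNA2 lies near that line, HSPA6 and ANKRD1 far to the right below 0, and GLP2R and SLC6A12 far to the left near 0.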

How the data were processed

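Libraries from polyadenylated HepG2 RNA were read from 1 end over 50 bases, per the labels' protocols. The authors deposited an expected count and an FPKM for each gene and library, per the file headers. The submitters' processing notes name HISAT2 2.0.4, Bowtie2 2.2.5, RSEM 1.2.8 and GRCh38.p12 without roles. A second table of 4 libraries was not used. Columns were matched to samples by their abbreviated names, and 0 columns of per-sample values were left unread.

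Expected counts were rounded, filtered with filterByExpr, scaled by TMM and fitted in edgeR 4.0.16 (R 4.3.3) by the robust quasi-likelihood test, with all 8 libraries and 1 coefficient a group. A gene was called at a Benjamini-Hochberg adjusted p under 0.05 over 17715 genes. SEs, which are approximate, divide the size of the log2 fold change by the root of F. FPKM served for the marker check. Replicates differed beyond sampling noise (4.53 to 10.6 as chi-square over its degrees of freedom). Bounds against 0 use 3 counts a library and cover counting error only. The fit was tested on simulated data. DESeq2 1.42.0, limma 3.58.1, other scalings, filters, a replicate block and leaving out each library were alternatives. Reads shared among paralogs, overlapping and antisense genes make such levels uncertain.

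Members and the 42 gene lists were chosen with earlier results of these data known. Genes named are IPO8, the 15 largest rises and 15 largest falls that were called, carry a usual symbol, average at least 100 counts and have separate groups, 14 genes of the study's theme, the 4 largest called members of each list and 6 genes in each direction for the difference. Others, such as AFF4, UQCRQ, further list members and those of small counts, were named after their values were seen. A few genes that the rule takes are not reported here. Positions are from GENCODE (GRCh38), and promoters and the miRNA from RefSeq.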

Additional observations from a re-analysis of the deposited data

Results flagged for a closer look

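The importin8 siRNA effect differed between the mimic and control-mimic settings in 12 genes, those with the 6 most positive and 6 most negative called differences among genes that average at least 100 counts over the 8 libraries. Each difference below is the log2 effect with the mimic minus that with the control mimic, from edgeR's interaction contrast. In 6 genes it was lower with the mimic. HSPA6 had -7.19 (adjusted p = 2.9e-06), ATP6V0D2 -6.47, IGFN1 -6.14, CA12, a carbonic anhydrase, -6.07, ESAM, an endothelial adhesion molecule, -6.01, and ANKRD1 -5.52. Some of these sizes rest on few counts with the control mimic. ATP6V0D2 had 8 and 3 counts in siIPO8-NC against 0 and 1 in NC. IGFN1 had 7 and 11 counts against 5 and 3, and HSPA6 had 5 and 7 counts in NC. CA12 had 2.36 and 1.99 CPM in siIPO8-miR-552-3p against 16.1 and 17.8 CPM in miR-552-3p, and 0.807 and 0.809 CPM in siIPO8-NC against 0.135 and 0.0438 CPM in NC. ESAM had 39.0 and 25.4 CPM against 137 and 140 CPM, and 10.5 and 3.69 CPM against 0.630 and 0.307 CPM. Its difference was not called without NC replicate 1 or replicate 2 (-5.58 to -6.61, adjusted p between 0.051 and 0.063). The ESAM fall within the mimic-treated cells was not called without siIPO8-miR-552-3p replicate 2 or either miR-552-3p library.

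In the other 6 genes the difference was higher with the mimic: GLP2R 9.10 (adjusted p = 0.00013), SLC6A12 6.96, PTGS1 6.22, ETNPPL 6.17, AQP6 6.11 and RANBP3L 5.96. These genes were high in NC alone. SLC6A12, the betaine transporter, had 0.625 and 0.237 CPM in siIPO8-miR-552-3p against 0.458 and 0.471 CPM in miR-552-3p, and 3.09 and 3.19 CPM in siIPO8-NC against 426 and 419 CPM in NC. ETNPPL, which breaks down phosphoethanolamine, had 3.80 and 4.32 CPM against 3.48 and 3.20 CPM, and 3.27 and 3.42 CPM against 202 and 197 CPM. Of the 6, only RANBP3L passed the test within the mimic-treated cells (-1.05, adjusted p = 0.022), a call lost without each of those 4 libraries in turn (-0.93 to -1.16). The AQP6 difference was not called without siIPO8-miR-552-3p replicate 2 (5.59, adjusted p = 0.080).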

How the results depend on the processing

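The 5934 calls numbered 4350 with DESeq2, 5916 with limma-voom, 5915 with DESeq2's size factors in edgeR, 5984 with upper-quartile scaling, 5789 without a filter, 5970 with at least 50 counts in 2 libraries, 6300 with the 4 mimic libraries alone and 4081 to 6421 on leaving out each library in turn. DESeq2's calls shared 4233 genes with the 5934. Rises were 49.9 to 54.2% of calls throughout, and the IPO8 fall was called in each setting. All 124 recomputed counts of calls over all genes lay within 1.5 times their main value. With a replicate block 6121 genes were called, 5782 of them shared. The replicate differences of the groups compared had a correlation of 0.01 across genes, and those of other pairs of groups -0.07 to 0.12. Whether libraries of the same replicate number shared a batch was not tested. The block ended the calls of HAMP, AGO1 and OAS2. DESeq2 also ended those of G6PC, AGO1, AGO3, LPCAT3, PPP1R3B, ANGPTL4, SLC51B, AMACR, NUPR1, LPIN3, COX6C, STAT2 and PYGL, which single libraries could end too. Of the values of named genes, 3 changed sign, none of them called: GLP2R to -0.50 without siIPO8-miR-552-3p replicate 1 (range on leaving out each library -0.50 to 0.99), SLC6A12 to 0.42 without its replicate 2 (-0.95 to 0.42), and AQP6 to -0.37 without miR-552-3p replicate 1 (-0.37 to 3.76). The cause was not tested. With 2 libraries a group, low genes such as G6PC and CYP8B1 rest on few counts.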

Other observations

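IFIT2, an interferon-induced gene too low to be tested, was listed at 0 in the replicate 2 library of each group. Its replicate 1 libraries had 7 counts (siIPO8-miR-552-3p), 7 counts (miR-552-3p), 10 counts (siIPO8-NC) and 11 counts (NC). The gene was noticed after its values were seen.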
